A study of Mus musculus with 41 samples.

Results

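The genes of the interleukin-2 (IL-2) receptor and of its STAT5 pathway were followed in mouse regulatory T (Treg) cells and in cells that had lost Foxp3. The members were Il2ra, Il2rb, Il2rg, Jak3, Stat5a, Stat5b, Cish, Socs2 and Socs3, taken by their symbol, and all 9 were found among the 19434 genes of the count table. Sorted T cells gave 41 RNA-seq libraries, from 2 experiments that deleted Uhrf1, a gene needed to keep DNA methylation when DNA is copied. In the chimera experiment, CD25-high Foxp3-YFP+ Treg cells came from female mice aged 8 weeks that were Uhrf1fl/flFoxp3+/YFP-Cre (chimeric knockout, n = 4) or Uhrf1+/+Foxp3YFP-Cre/YFP-Cre (control, n = 4). Cre is driven by the Foxp3 locus there, so that both groups carry Cre and the chimeric mice carry it on 1 X chromosome only. In the pulse-chase experiment, mice were Uhrf1fl/flFoxp3GFP-CreERT2Rosa26SorCAG-tdTomato (fl/fl, n = 6) or the same with Uhrf1+/+ (control, n = 5), were 8 weeks old, and had eaten tamoxifen chow for 2 weeks and then standard chow for 4 weeks. Cre under Foxp3 is active only with tamoxifen in these mice, in both genotypes, and leaves tdTomato in the cells where it acted. From every genotype 3 populations were sorted: ex-Foxp3 cells (GFP-tdTomato+), which carried the mark but no longer Foxp3-GFP; labeled Treg cells (GFP+tdTomato+); and post-tamoxifen Treg cells (GFP+tdTomato-), in which tdTomato was absent.

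The IL-2 receptor has an alpha chain (CD25, from Il2ra) that raises its affinity for IL-2, and beta and gamma chains (Il2rb and Il2rg) that carry the signal and are shared with other cytokine receptors. JAK3, bound to the gamma chain, and JAK1, bound to the beta chain, phosphorylate STAT5A and STAT5B, which pair up, enter the nucleus and bind sites with the letters TTCNNNGAA. Cish, Socs2 and Socs3 encode members of the SOCS family that dampen cytokine signalling; Cish and Socs2 are well-known STAT5 targets, and Socs3 is best known as a target of STAT3 and a brake on IL-6 signalling. Treg cells have high CD25, make little IL-2 of their own and depend on IL-2 from other cells, and STAT5 takes part in keeping Foxp3 on.

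The table gave raw counts per gene, and total counts ran from 781437 to 5709702 per library (chimeric knockout 2403189 to 4594977, all pulse-chase libraries 3435802 or less). Every member held at least 17 counts in every library. Levels below are counts-per-million (CPM) of the library, scaled by the trimmed mean of M-values (TMM), given as mean ± SD over libraries. Log2 fold changes are given ± SE, with p-values from edgeR's quasi-likelihood test adjusted by Benjamini-Hochberg over all genes tested, and a gene was called at an adjusted p under 0.05. Uhrf1 was at 13.1 ± 6.35 CPM in chimeric knockout cells and 25.2 ± 4.92 CPM in chimera controls (log2 fold change -0.95 ± 0.25, adjusted p = 0.0378), while the library labelled chimeric knockout 4 held 22.3 CPM, within the range of the controls. In the pulse-chase experiment Uhrf1 was not called lower in fl/fl cells of any population (log2 fold changes -0.20 in ex-Foxp3, -0.15 in labeled and 1.62 in post-tamoxifen cells, adjusted p 0.113 or above). Post-tamoxifen cells lack tdTomato, the mark that Cre leaves, so a genotype difference there is not one between cells marked for deletion. Their Uhrf1 was at 84.9 ± 65.1 CPM in fl/fl and 29.9 ± 18.7 CPM in control libraries. Chimera control 1 and pulse-chase controls 2 and 3, in all 3 populations, held Y-linked reads. CD4 T cell markers summed to 1858 to 2818 CPM of the total count in every library, and the 4 NK markers summed to 1.13 to 24.1 CPM in fl/fl and 0 to 1.05 CPM in control ex-Foxp3 libraries, with Ncr1 and Klra8 at 0 in both. In post-tamoxifen cells, B and plasma cell markers reached 8.46 to 547 CPM in fl/fl and 2.54 to 61.4 CPM in control libraries, and myeloid markers 45.8 to 432 CPM in fl/fl and 12.7 to 293 CPM in control libraries. Within labeled and ex-Foxp3 libraries those lists stayed at or under 21.5 CPM. The labels call the libraries biological replicates and do not say which came from the same mouse.

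In mm10 coordinates as deposited, Il2ra (ENSMUSG00000026770) lies at chr2:11642792-11693191 on the plus strand, Il2rb (ENSMUSG00000068227) at chr15:78480553-78495066 on the minus strand and Il2rg at chrX:101264378-101268255 on the minus strand. Jak3 lies at chr8:71676296-71690575 (plus), Stat5a (ENSMUSG00000004043) at chr11:100859351-100885169 (plus) and Stat5b (ENSMUSG00000020919) beside it at chr11:100780731-100850724 (minus). Cish (ENSMUSG00000032578) lies at chr9:107296026-107302784 (plus), Socs2 (ENSMUSG00000020027) at chr10:95385362-95417180 (minus) and Socs3 (ENSMUSG00000053113) at chr11:117966079-117970047 (minus). The rows for Il2rg and Jak3 carry the identifiers of the predicted genes Gm20489 and Gm9933, and their coordinates are those of Il2rg and Jak3 in GENCODE M21. In that annotation Gm20489 overlaps Il2rg and Gm37881 overlaps Il2ra, each on the same strand, and how far the Il2rg row holds reads of Gm20489 was not tested. The Jak3 span also holds Insl3 on the same strand, the Stat5a span reaches Stat3 on the other strand, and the Cish span holds Gm17040 and Gm17041 on the other strand. Reads of such pairs may have been split or shared, since the strand setting of the counting was not given in the sources used here. Insl3 was listed at 12.7 to 43.5 CPM.

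Scaled by exon length (CPM per kb, exons of all GENCODE transcripts merged), the gamma chain gene Il2rg had the highest mean level of the 9 in every group except the chimeric knockout, at 183 CPM per kb in ex-Foxp3 fl/fl and 178 CPM per kb in ex-Foxp3 control cells. Il2rb came next in all 6 pulse-chase groups. Il2ra shifted most in this order: it had rank 1 in chimeric knockout cells (213 CPM per kb), rank 2 in chimera controls (197) and rank 3 in labeled and post-tamoxifen cells. In ex-Foxp3 cells it had rank 7 in fl/fl mice (19.3 CPM per kb) and rank 5 in controls (33.6). Stat5a had rank 8 and Socs2 rank 9 in all 8 groups, Socs2 at 1.70 to 5.77 CPM per kb.

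**Figure D1:**
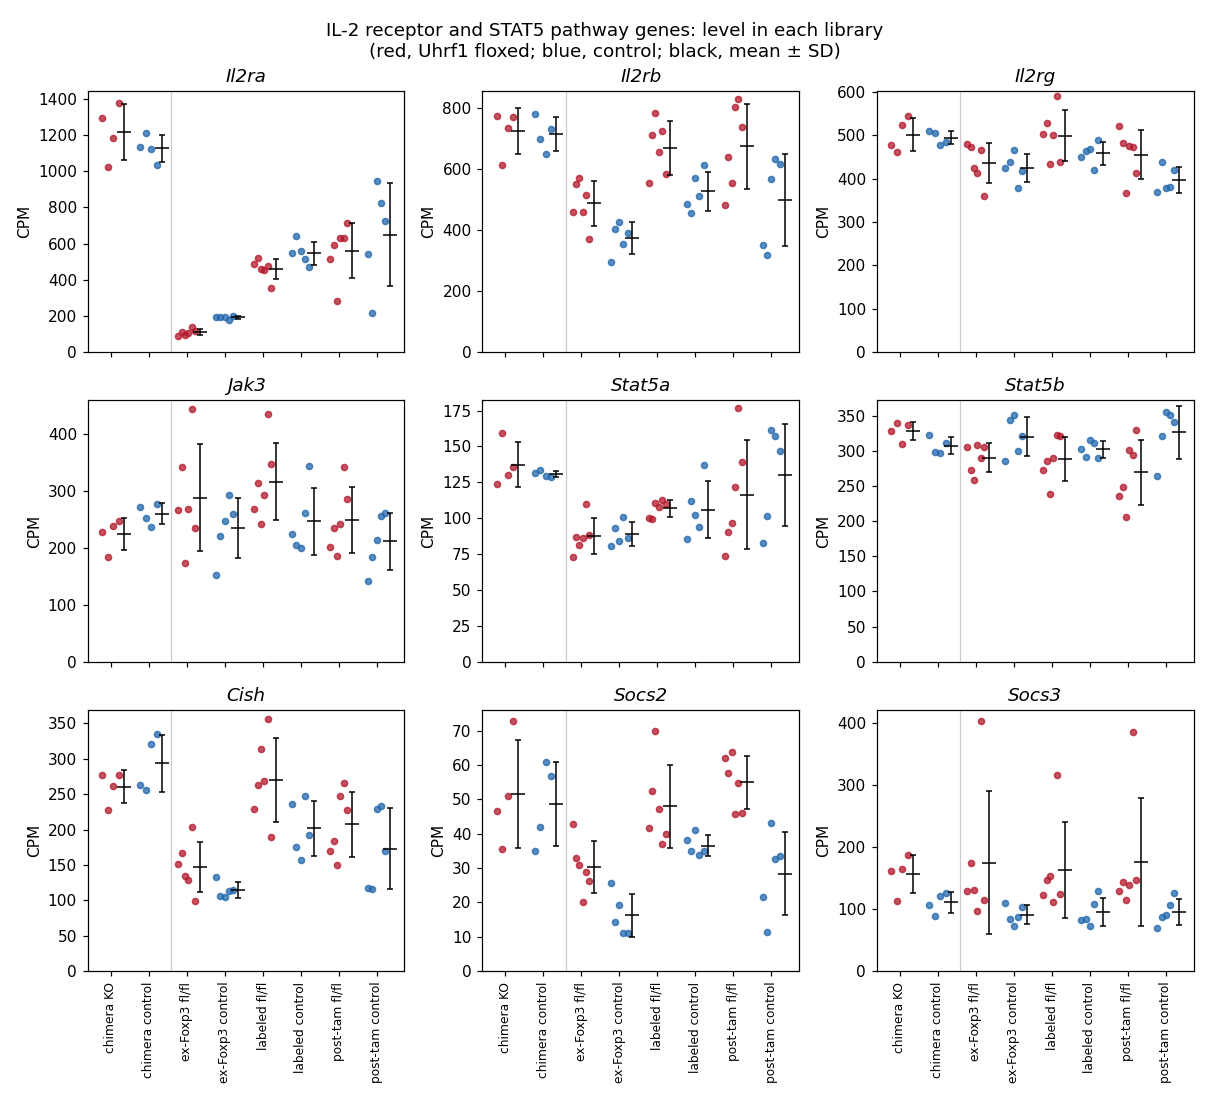
Level of each of the 9 genes in each of the 41 libraries, in CPM of the TMM-scaled library (vertical axis from 0), by group, with red points for Uhrf1 floxed mice, blue points for controls and black bars for the mean ± SD; the grey line parts the chimera from the pulse-chase experiment. The Il2ra panel has the widest spread between groups, with ex-Foxp3 libraries at 89.7 to 201 CPM and chimera libraries at 1021 to 1377 CPM.

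All but 1 of the calls of members lay between ex-Foxp3 cells and the GFP+ populations, and each of these was lower in ex-Foxp3 cells. Against labeled cells, ex-Foxp3 cells had 2 of 9 members lower in fl/fl mice (Il2ra and Cish), where 4.09% of all genes tested were called, 2.04% lower and 2.06% higher. In controls they also had 2 of 9 lower (Il2ra and Socs2), where 0.353% were called, 0.161% lower and 0.192% higher. Against post-tamoxifen cells, ex-Foxp3 cells had 3 lower in fl/fl mice (Il2ra, Il2rb and Socs2; 15.2% of all genes called, 9.39% lower and 5.8% higher) and 3 lower in controls (Il2ra, Stat5a and Socs2; 5.33% called, 2.76% lower and 2.57% higher). No member was called higher in these 4 comparisons. Same-numbered libraries deviated together in these comparisons, except against post-tamoxifen controls. A fit blocked by number called 4 lower against labeled cells in fl/fl mice (with Il2rb and Socs2 added), 3 lower in controls (with Cish added) and 5 lower against post-tamoxifen cells in fl/fl mice (with Stat5a and Cish added). The median log2 fold change of the 9 was -0.29, -0.24, -0.40 and -0.41 in that order, against 0.01, -0.0006, 0.01 and -0.0048 over all genes tested. The comparisons against labeled and post-tamoxifen cells share the ex-Foxp3 libraries. Between labeled and post-tamoxifen cells 0 members were called in fl/fl mice (4.58% of all genes, 1.79% higher and 2.78% lower) and 0 in controls (7.93%, 3.98% higher and 3.95% lower); 1 member in each was under an unadjusted 0.05, where 16.6% and 20.1% of all genes were. DESeq2 called 0 in each, and the fit blocked by number called 1 in fl/fl mice (Jak3).

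Between genotypes, fl/fl against control, 1 member was called: Socs2, higher in post-tamoxifen cells, which lack the tdTomato mark of Cre. In that comparison 7.23% of all genes were called, 3.9% higher and 3.33% lower. There 5 members and 24.3% of all genes were under an unadjusted 0.05, and DESeq2 called Il2rb and Stat5b as well. In ex-Foxp3 cells 0 of 9 were called (0.181% of all genes; 4 members and 8.84% of all genes under an unadjusted 0.05, 1 member called by DESeq2), and in labeled cells 0 of 9 (0.0101%; 3 members and 9.41% of all genes under an unadjusted 0.05, 0 members by DESeq2). In the chimera, knockout against control, 0 of 9 were called (2.41%, 0.857% higher and 1.56% lower; 2 members and 13.4% of all genes under an unadjusted 0.05, 1 member by DESeq2). Whether the ex-Foxp3 to labeled difference itself differed between genotypes was tested as an interaction, as was the labeled to post-tamoxifen difference: 0 members and 0% of all genes were called in the first and 0 members and 0.0202% in the second. No member was under an unadjusted 0.05 in either interaction, and DESeq2 called 0 in each. A miss of the threshold does not show that the genotypes were alike. In these bulk libraries a lower level may mean fewer cells with the transcript or less of it in each cell, and the 2 cannot be told apart.

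**Figure D2:**
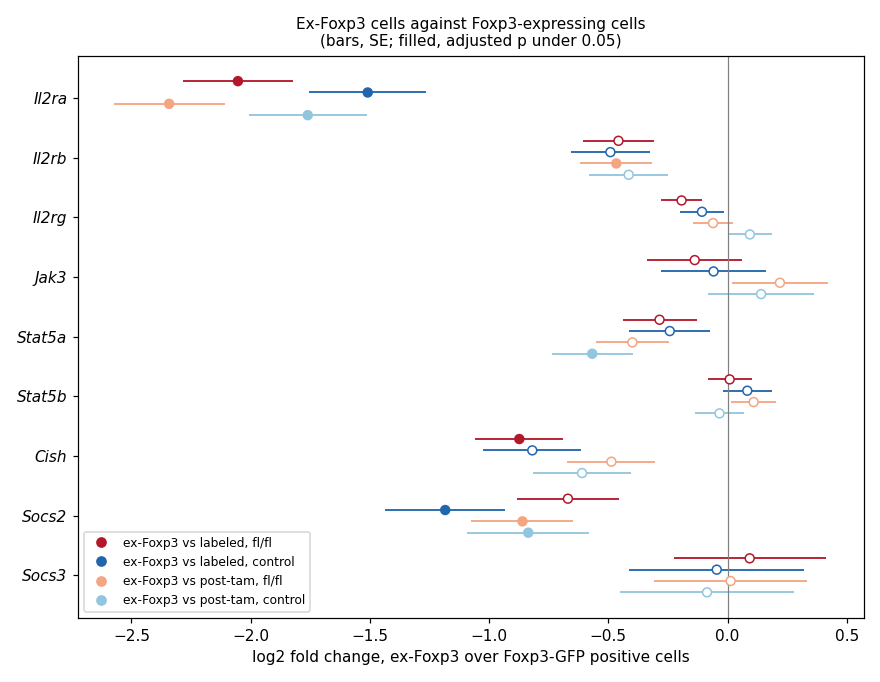
Log2 fold change of ex-Foxp3 cells over labeled or post-tamoxifen cells (horizontal axis) for each gene (rows), in fl/fl mice (red shades) and controls (blue shades), with bars for the SE and filled points for an adjusted p under 0.05. Il2ra lies at -1.51 to -2.34 with all 4 points filled, while Il2rg, Jak3, Stat5b and Socs3 lie between -0.19 and 0.22.

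Il2ra, the CD25 gene, was lower in ex-Foxp3 cells than in either GFP+ population of both genotypes. Ex-Foxp3 fl/fl libraries held 89.7 to 139 CPM (median 111), and ex-Foxp3 control libraries 192, 196, 192, 179 and 201 CPM. Labeled fl/fl libraries held 356 to 519 CPM (median 469), and labeled control libraries 547, 643, 558, 514 and 468 CPM. Every ex-Foxp3 library was below every labeled library. The means were 110.4 ± 17.1 CPM in ex-Foxp3 and 459 ± 55.7 CPM in labeled fl/fl cells, 4.15-fold lower (log2 fold change -2.05 ± 0.23, adjusted p = 2.66e-06; n = 6 each). In controls they were 192 ± 8.15 CPM and 546 ± 64.3 CPM, 2.85-fold lower (-1.51 ± 0.25, adjusted p = 0.00334; n = 5 each). With numbers 1 to 3 alone (n = 3 each) the control value was -1.60 with an adjusted p of 0.137, and that against post-tamoxifen controls -1.55 (0.22). The GFP gate reads Foxp3, which was itself lower in ex-Foxp3 than in labeled cells (13.3 to 113 CPM (median 67.5) against 317 to 508 CPM (median 359.6) in fl/fl mice). That gate does not use CD25 in the labels of this experiment.

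Post-tamoxifen cells had the widest spread of Il2ra. Ex-Foxp3 cells were lower than these as well, at log2 fold changes of -2.34 ± 0.23, adjusted p = 6.52e-07 in fl/fl mice and -1.76 ± 0.25, adjusted p = 0.000339 in controls. Post-tamoxifen fl/fl libraries held 282 to 714 CPM (median 611) and post-tamoxifen control libraries 544, 214, 944, 824 and 722 CPM, all above the ex-Foxp3 libraries of their genotype. The lowest were fl/fl number 3 (282 CPM) and control number 2 (214 CPM), which were also the lowest of their groups in Foxp3 (128 and 123 CPM, the others 287 CPM or more). This pair of libraries was left out in a setting chosen after seeing the data. Labeled cells then differed from post-tamoxifen cells by -0.42 (adjusted p = 0.0139) in fl/fl mice and -0.47 (adjusted p = 0.00602) in controls. Leaving out the libraries lowest in Il2ra by itself raises the post-tamoxifen level, so these p-values cannot show a difference. With all libraries those differences were -0.29 ± 0.22, adjusted p = 0.577 and -0.25 ± 0.24, adjusted p = 0.624. They were called in 0 of 12 and 0 of 10 fits that left out 1 library, in that order. With numbers 4 and above alone they were -0.63, adjusted p = 6.04e-05 in fl/fl mice and -0.64, adjusted p = 0.000594 in controls, and with 1 to 3 alone 0.09, adjusted p = 0.971 and 0.05, adjusted p = 0.974. Whether the myeloid and B cell transcripts in post-tamoxifen libraries take part in these values was not tested.

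Across genotypes, Il2ra in ex-Foxp3 cells was below every control in all 6 fl/fl libraries, 110.4 ± 17.1 CPM against 192 ± 8.15 CPM, 1.74-fold. This difference missed the threshold in the fit over all 6 groups (-0.80 ± 0.24, adjusted p = 0.171). It passed with the ex-Foxp3 libraries fitted alone (adjusted p = 8.55e-05) and with numbers 4 and above alone (-0.66, adjusted p = 0.0117). In all it was called in 3 of 23 alternatives, counting the fit blocked by number (1.63e-05), and in 0 of the 11 fits that left out 1 library. Numbers did not pair the libraries in this comparison. Over the 23 alternatives its adjusted p ran from 1.63e-05 to 0.641 and its log2 fold change from -0.95 to -0.66. Ex-Foxp3 fl/fl libraries were on average lower in Foxp3 as well (13.3 to 113 CPM against 79.4 to 151 CPM), a difference that was not called (-0.82 ± 0.38, adjusted p = 0.521), and fl/fl numbers 1 and 3 held more NK marker reads than the rest (24.1 and 11.5 CPM, others 3.49 CPM or less). Their part in the Il2ra difference was not tested. In the chimera, where surface CD25 was part of the gate, libraries held 1292, 1021, 1179.8 and 1377 CPM in knockouts and 1133, 1212, 1123 and 1033 CPM in controls.

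Ordered by mean over all 8 groups on 1 scale (TMM over all 41 libraries), Il2ra was highest in chimeric knockout and chimera control cells, which overlapped. After a gap came post-tamoxifen control, post-tamoxifen fl/fl, labeled control and labeled fl/fl cells, with overlap between neighbours, and after further gaps ex-Foxp3 control and ex-Foxp3 fl/fl cells. The highest mean was 10.9-fold the lowest. The experiments differ in gate and reporter, so levels across them are a description.

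**Figure D3:**
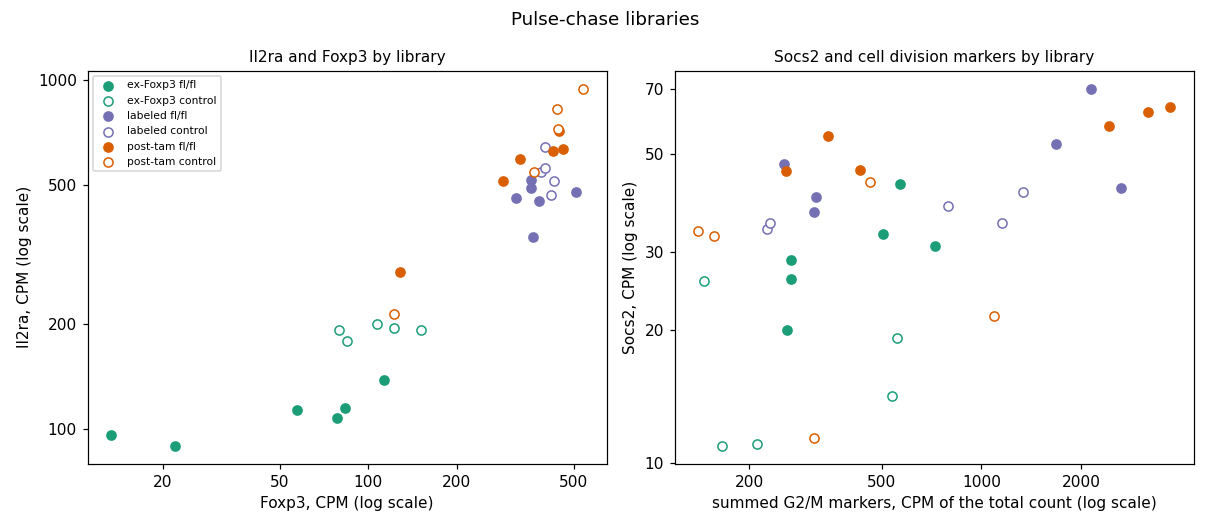
Left, Il2ra (vertical axis) against Foxp3 (horizontal axis), both in CPM on log scales, in each of the 33 pulse-chase libraries; right, Socs2 in CPM against the summed cell division (G2/M) markers in CPM of the total count, on log scales, with filled points for fl/fl and open points for control libraries. Ex-Foxp3 libraries lie at the lower left of the Il2ra plot together with a post-tamoxifen library of each genotype at 128 and 123 CPM Foxp3, and on the right ex-Foxp3 control libraries lie at 10.9 to 25.7 CPM of Socs2 and 146 to 555 CPM of division markers.

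The beta chain gene Il2rb was on average lower in ex-Foxp3 than in GFP+ cells, with smaller fold changes than Il2ra. Ex-Foxp3 libraries held 369 to 570.3 CPM (median 487) in fl/fl mice and 294, 403, 427, 354 and 392 CPM in controls. Labeled libraries held 555 to 783 CPM (median 684) in fl/fl mice and 487, 455, 570.3, 512 and 613 CPM in controls, and only the control groups did not overlap. Against labeled cells the log2 fold change of ex-Foxp3 cells was -0.46 ± 0.15, adjusted p = 0.0804 in fl/fl mice, where the fit blocked by replicate number gave an adjusted p of 0.0299. It was -0.49 ± 0.17, adjusted p = 0.253 in controls, and was called with these groups alone (0.00905) and with numbers 4 and 5 alone (-0.59, adjusted p = 0.02; -0.44, adjusted p = 0.456 with 1 to 3). Against post-tamoxifen cells (483 to 829 CPM (median 688) in fl/fl mice, 350.0, 319, 568, 632 and 616 CPM in controls) it was -0.47 ± 0.15, adjusted p = 0.0336 in fl/fl mice and -0.41 ± 0.17, adjusted p = 0.174 in controls. The fl/fl call was lost without ex-Foxp3 fl/fl 4 or 6 or post-tamoxifen fl/fl 4, 5 or 6 (adjusted p 0.0539 to 0.0737), without number 5 in all populations (0.104) and with no filter on low counts (0.0574). With numbers 1 to 3 alone, a split chosen after seeing the data, it was -0.09, adjusted p = 0.852, and with 4 to 6 alone -0.82, adjusted p = 1.28e-07. In controls, leaving out post-tamoxifen control 2 gave -0.53 with an adjusted p of 0.0229. With control numbers 4 and 5 alone it was -0.73, adjusted p = 7.25e-05, and with 1 to 3 alone -0.15, adjusted p = 0.902.

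The ratio of Il2ra to Il2rb counts had its lowest medians in ex-Foxp3 cells. It was 0.170 to 0.313 (median 0.221) in ex-Foxp3 fl/fl and 0.450 to 0.652 in ex-Foxp3 control libraries, so that the genotypes did not overlap. In labeled cells it was 0.588 to 0.883 in fl/fl and 0.764 to 1.41 in control libraries, and in the CD25-gated chimera cells 1.61 to 1.79 in knockout and 1.41 to 1.74 in control libraries. Between genotypes, Il2rb was on average higher in fl/fl cells of each pulse-chase population, at 0.38 ± 0.16, adjusted p = 0.427 in ex-Foxp3, 0.35 ± 0.16, adjusted p = 0.511 in labeled and 0.43 ± 0.16, adjusted p = 0.0874 in post-tamoxifen cells, none past the threshold. The last was called by DESeq2 (adjusted p = 0.0365) and without post-tamoxifen fl/fl 1 (0.0476), which makes 2 of 23 alternatives.

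The gamma chain gene Il2rg was the steadiest of the receptor genes. Its group means differed by 1.25-fold between the highest, labeled fl/fl, and the lowest, post-tamoxifen control, and neighbours in the order of the 8 groups overlapped throughout. Ex-Foxp3 libraries held 361 to 479.7 CPM (median 445) in fl/fl mice and 424, 437, 467, 379 and 418 CPM in controls, labeled libraries 434 to 591 CPM (median 501) in fl/fl mice and 450.3, 463, 469, 419.8 and 490.2 CPM in controls. No comparison called it, and its log2 fold changes between groups lay from -0.19 to 0.20. Without the post-tamoxifen libraries low in Foxp3 it was called higher in post-tamoxifen fl/fl than control cells (0.30, adjusted p = 0.0439; with all libraries 0.19 ± 0.09, adjusted p = 0.178).

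Jak3, the kinase on the gamma chain, was not called in any comparison unless blocked by number, and its libraries overlapped between all neighbours in the order of the 8 groups. Ex-Foxp3 fl/fl libraries held 172 to 443 CPM (median 267), labeled fl/fl libraries 242 to 434 CPM (median 303) and post-tamoxifen fl/fl libraries 185 to 342 CPM (median 237), with fl/fl number 5 the highest in each. Controls held 153, 221, 248, 292 and 258 CPM in ex-Foxp3, 223, 204, 199.9, 261 and 343 CPM in labeled and 141, 183, 214, 255 and 261 CPM in post-tamoxifen cells. Labeled and post-tamoxifen cells overlapped in fl/fl mice, at a log2 fold change of 0.36 ± 0.20, adjusted p = 0.393, which the fit blocked by replicate number called (0.35, adjusted p = 0.0156). In the chimera it was at 228, 184, 238 and 247 CPM in knockouts and 272, 252, 237 and 277 CPM in controls (-0.21 ± 0.09, adjusted p = 0.239).

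Stat5a and Stat5b, which encode closely related proteins side by side on chromosome 11, kept different patterns. Stat5b stood near the same level in all groups, with means from 269.5 ± 46.3 CPM in post-tamoxifen fl/fl to 329 ± 13.2 CPM in chimeric knockout cells. Stat5a libraries held 73.2 to 110.1 CPM (median 86.5) in ex-Foxp3 fl/fl and 80.4, 93.0, 83.9, 101 and 86.1 CPM in ex-Foxp3 control cells. Post-tamoxifen libraries held 73.3 to 177 CPM (median 109) in fl/fl mice and 82.4, 101, 161, 157 and 147 CPM in controls. The ex-Foxp3 control cells were lower than post-tamoxifen control cells (-0.57 ± 0.17, adjusted p = 0.0405), although the groups overlapped. The adjusted p rose above the threshold on leaving out any of the 5 ex-Foxp3 control libraries or post-tamoxifen control 3, 4 or 5 (0.0538 to 0.17), and with no filter on low counts (0.0509). It was -0.46, adjusted p = 0.364 with numbers 1 to 3 alone and -0.70, adjusted p = 0.00852 with 4 and 5 alone. In fl/fl mice the difference was -0.40 ± 0.15, adjusted p = 0.0747, and the fit blocked by number gave -0.38 with an adjusted p of 0.0202. It was also past the threshold without post-tamoxifen fl/fl 1 (0.0186) or 2 (0.0436) or ex-Foxp3 fl/fl 5 (0.0408). It was -0.12, adjusted p = 0.767 with fl/fl numbers 1 to 3 alone and -0.61, adjusted p = 0.00324 with 4 to 6 alone.

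The ratio of Stat5b to Stat5a reads had medians of 3.33 in ex-Foxp3 fl/fl and 3.70 in ex-Foxp3 control libraries, against 2.80 in labeled fl/fl and 3.10 in labeled control libraries. It was 2.44 in chimeric knockout and 2.36 in chimera control libraries; the ranges of ex-Foxp3 and labeled libraries overlapped in both genotypes. In post-tamoxifen cells, Stat5b was at 207 to 329 CPM (median 272) in fl/fl mice and 264, 321, 356, 351 and 341 CPM in controls (-0.28 ± 0.10, adjusted p = 0.0639). That genotype difference was called by DESeq2 (0.0465), with numbers 1 to 3 alone (0.0134), and without post-tamoxifen control 1 (0.0293), fl/fl 4 (0.0457) or fl/fl 6 (0.0182). Reads over the end of Stat5a may include those of Stat3, which lay at 304 to 569.5 CPM.

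Cish, which encodes the STAT5-induced inhibitor CIS, was lower in ex-Foxp3 than in labeled fl/fl cells. Because Cish is a known STAT5 target and Socs3 a known STAT target, the promoter windows of the members (250 bases before to 50 bases after each RefSeq start, GRCm38.p6) were searched for TTCNNNGAA, which reads the same on both strands. Windows were at hand for 7 of the 9 members, not for Il2rb and Socs2. Cish held 2 copies and Socs3 held 1, and Il2ra, Il2rg, Jak3, Stat5a and Stat5b held none within these windows. Of all 32851 windows of that length, 8.3% held a copy and 0.457% held 2 or more. The stretch of Cish printed here is chr9:107296579-107296680 (plus strand) and that of Socs3 is chr11:117969477-117969556 (minus strand, written along the gene), both GRCm38.p6 from RefSeq, with the matches in capitals.
Cish: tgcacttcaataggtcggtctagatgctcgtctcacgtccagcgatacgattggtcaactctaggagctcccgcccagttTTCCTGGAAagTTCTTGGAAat
Socs3: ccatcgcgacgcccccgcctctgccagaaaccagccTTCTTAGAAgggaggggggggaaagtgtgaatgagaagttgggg
The copies in Cish start at base 1 and base 12 of the transcript and are parted by 2 bases, and that in Socs3 starts 154 bases before the start site. A match is a run of letters and not a measured binding site.

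Ex-Foxp3 libraries held 99.4 to 204 CPM (median 143) of Cish in fl/fl mice and 133, 107, 105, 113 and 115 CPM in controls. Labeled libraries held 189 to 356 CPM (median 266) in fl/fl mice and 236, 176, 157, 248 and 193 CPM in controls. In fl/fl mice the groups met at their edges, since ex-Foxp3 number 5 was above labeled number 6, and in controls they did not overlap. The means were 147 ± 35.6 CPM in ex-Foxp3 and 269.8 ± 59.4 CPM in labeled fl/fl cells, 1.83-fold lower (-0.87 ± 0.18, adjusted p = 0.00431), and 114 ± 11.2 CPM and 202 ± 38.8 CPM in controls (-0.82 ± 0.21, adjusted p = 0.072). The control difference was called in the fit blocked by number (0.0246), by DESeq2 (0.0055) and with these groups alone (0.000275); the fl/fl difference was -0.92 with an adjusted p of 0.191 with numbers 4 and above alone.

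Post-tamoxifen cells lay between, at 149 to 265 CPM (median 206) in fl/fl mice and 118, 115, 229, 233 and 169 CPM in controls. Ex-Foxp3 cells differed from them by -0.49 ± 0.18, adjusted p = 0.0723 in fl/fl mice and -0.61 ± 0.21, adjusted p = 0.0858 in controls. The fl/fl value was past the threshold in the fit blocked by number (0.0361), by DESeq2 (0.0277) and without post-tamoxifen fl/fl 3 (0.0466) or ex-Foxp3 fl/fl 5 (0.0273). The control value was past it by DESeq2 (0.0298) and without post-tamoxifen control 2 (0.0195). In all, 5 of 24 alternatives called the fl/fl value and 3 of 21 called the control value. Between genotypes Cish was not called, with means of 147 ± 35.6 CPM in fl/fl and 114 ± 11.2 CPM in control ex-Foxp3 cells (0.36 ± 0.20, adjusted p = 0.63), 0.42 ± 0.19, adjusted p = 0.512 in labeled cells and -0.17 ± 0.09, adjusted p = 0.427 in the chimera.

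**Figure D4:**
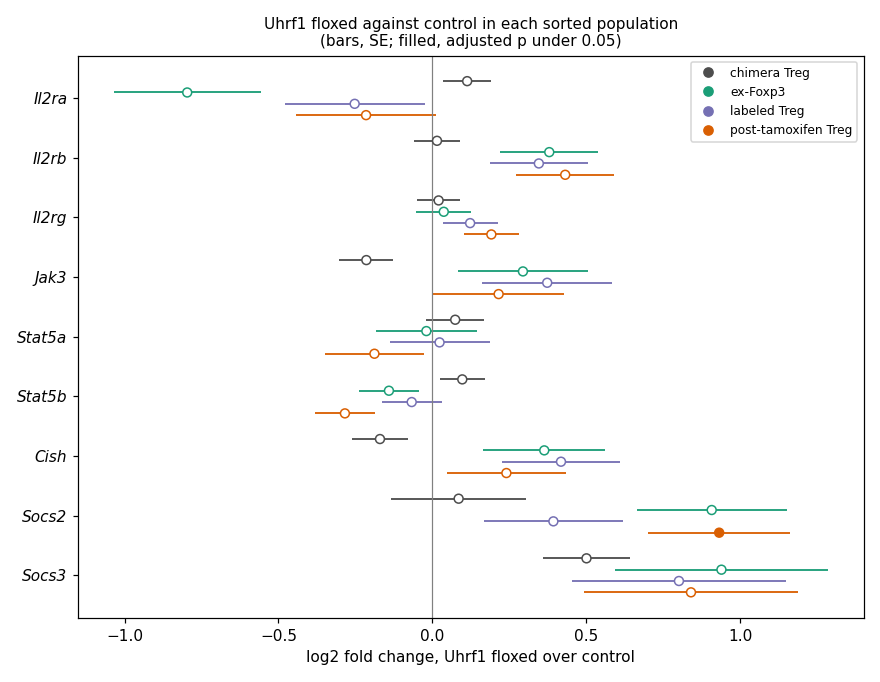
Log2 fold change of Uhrf1 floxed over control cells (horizontal axis) for each gene (rows) in the chimera and in the 3 pulse-chase populations (colours), with bars for the SE and filled points for an adjusted p under 0.05. Socs3 lies right of 0 in all 4 comparisons (0.50 to 0.94) without a filled point, and the filled point is Socs2 in post-tamoxifen cells (0.93).

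Socs2, which encodes a STAT5-induced member of the SOCS family known to restrain growth hormone signalling, was the least abundant of the 9. It was called between populations, and between genotypes in post-tamoxifen cells only. Ex-Foxp3 libraries held 20.03 to 42.7 CPM (median 29.9) in fl/fl mice and 25.7, 14.2, 19.2, 10.9 and 11.1 CPM in controls. Labeled libraries held 36.9 to 70.1 CPM (median 44.6) in fl/fl mice and 38.1, 34.9, 41.1, 33.9 and 34.9 CPM in controls. In controls every ex-Foxp3 library was below every labeled library, with means of 16.2 ± 6.28 CPM and 36.6 ± 2.98 CPM, 2.27-fold lower (-1.18 ± 0.25, adjusted p = 0.0191). That call was lost without ex-Foxp3 control 2, 4 or 5 or labeled control 2 or 3 (adjusted p 0.0522 to 0.0874) and without the mice with Y-linked reads (0.165). It was -0.95, adjusted p = 0.258 with numbers 1 to 3 alone and -1.64, adjusted p = 0.00317 with 4 and 5 alone. In fl/fl mice the groups overlapped (-0.67 ± 0.22, adjusted p = 0.0681), and the fit blocked by number gave an adjusted p of 0.0162; without ex-Foxp3 fl/fl 1 it was 0.0386.

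Against post-tamoxifen cells, ex-Foxp3 cells were lower in Socs2 in both genotypes. In fl/fl mice the log2 fold change was -0.86 ± 0.21, adjusted p = 0.00494, and the groups did not overlap (20.03 to 42.7 CPM against 45.7 to 63.8 CPM); it was -0.78, adjusted p = 0.105 with numbers 1 to 3 alone and -0.96, adjusted p = 0.00208 with 4 to 6 alone. In controls it was -0.84 ± 0.26, adjusted p = 0.045, with overlap, and 7 of the 10 fits that left out 1 library lost the call, those without ex-Foxp3 control 2, 3, 4 or 5 or post-tamoxifen control 3, 4 or 5 (adjusted p 0.0564 to 0.267). The control value was -0.37, adjusted p = 0.816 with numbers 1 to 3 alone and -1.57, adjusted p = 0.000261 with 4 and 5 alone.

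Post-tamoxifen fl/fl libraries held 45.7 to 63.8 CPM (median 56.2) of Socs2 and post-tamoxifen control libraries 21.6, 11.4, 43.2, 32.5 and 33.4 CPM, and every fl/fl library was above every control. The means were 55.0 ± 7.76 CPM and 28.4 ± 12.2 CPM, 1.91-fold higher (0.93 ± 0.23, adjusted p = 0.00972). All 11 fits without 1 library kept the call. It was lost with the post-tamoxifen groups fitted alone (0.0683), with numbers 4 and above alone (0.56, adjusted p = 0.28; 1.25, adjusted p = 0.0105 with 1 to 3) and without the libraries low in Foxp3 (0.68, adjusted p = 0.0555). In ex-Foxp3 cells the genotype difference was of like size (0.91 ± 0.24, adjusted p = 0.101; DESeq2 adjusted p = 0.0409, ex-Foxp3 groups alone 0.0456), and in labeled cells 0.39 ± 0.23, adjusted p = 0.617. The summed cell division markers (8 genes, among them Mki67 and Top2a) were 258 to 3696 CPM in fl/fl and 140.3 to 1088 CPM in control post-tamoxifen libraries. In ex-Foxp3 cells they were 260.0 to 724 CPM in fl/fl and 146 to 555 CPM in control libraries, and in labeled cells 255 to 2634 CPM in fl/fl and 226 to 1333 CPM in control libraries. In each fl/fl population numbers 1 to 3 held more of these markers than numbers 4 to 6. Labeled and post-tamoxifen controls were split likewise, with numbers 1 to 3 above 4 and 5, while ex-Foxp3 control 1 (146 CPM) was below 4 and 5. The part of division in the Socs2 differences was not tested, nor was that of the B, plasma and myeloid transcripts given above.

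Socs3, which encodes an inhibitor induced by cytokines and best known for braking IL-6 signalling, was not called between populations (log2 fold changes -0.09 to 0.09) and was on average higher in Uhrf1 floxed cells of every sort, without passing the threshold. Ex-Foxp3 libraries held 96.4 to 403 CPM (median 129.6) in fl/fl mice and 109, 83.3, 72.4, 87.0 and 103 CPM in controls. Labeled libraries held 112 to 316 CPM (median 136) in fl/fl mice and 81.9, 83.9, 73.1, 108 and 128 CPM in controls, and post-tamoxifen libraries 114 to 385 CPM (median 141) in fl/fl mice and 69.7, 86.5, 90.1, 106 and 125 CPM in controls. The fl/fl and control ranges overlapped in each population. The log2 fold changes were 0.94 ± 0.35, adjusted p = 0.317 in ex-Foxp3, 0.80 ± 0.35, adjusted p = 0.498 in labeled and 0.84 ± 0.35, adjusted p = 0.133 in post-tamoxifen cells. In the chimera Socs3 was at 161, 114, 163 and 187 CPM in knockouts and 106, 88.7, 121 and 126 CPM in controls (0.50 ± 0.14, adjusted p = 0.0839), with overlap by knockout 2 alone. Without that library, the lowest of the knockouts, it was called (0.64, adjusted p = 0.000919). It was also called by DESeq2 (0.0178) and with no filter on low counts (8.54e-05). In all it was called in 4 of 15 alternatives, counting the fit blocked by number, and in 1 of the 8 fits that left out 1 library. The adjusted p of those 8 fits reached 0.234.

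The libraries of fl/fl number 5 held the most Socs3 in all 3 populations, 403 CPM in ex-Foxp3, 316 CPM in labeled and 385 CPM in post-tamoxifen cells. The other 5 fl/fl numbers held 96.4 to 174, 112 to 153 and 114 to 147 CPM in that order. Stat3, whose product drives Socs3 downstream of IL-6 family cytokines, was highest there as well, at 469.8, 528 and 569.5 CPM against at most 379.6, 406 and 383 CPM in the others. Without number 5 the genotype difference was 0.50, adjusted p = 0.19 in ex-Foxp3, 0.49, adjusted p = 0.251 in labeled and 0.48, adjusted p = 0.0489 in post-tamoxifen cells, smaller in size in each and past the threshold in post-tamoxifen cells. With numbers 1 to 3 alone it was called in all 3 populations, at 0.71 in ex-Foxp3 (adjusted p = 0.02), 0.82 in labeled (0.01) and 0.62 in post-tamoxifen cells (0.0103). With numbers 4 and above alone it was 1.09, adjusted p = 1, 0.69, adjusted p = 0.929 and 0.92, adjusted p = 0.684 in that order.

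**Figure D5:**
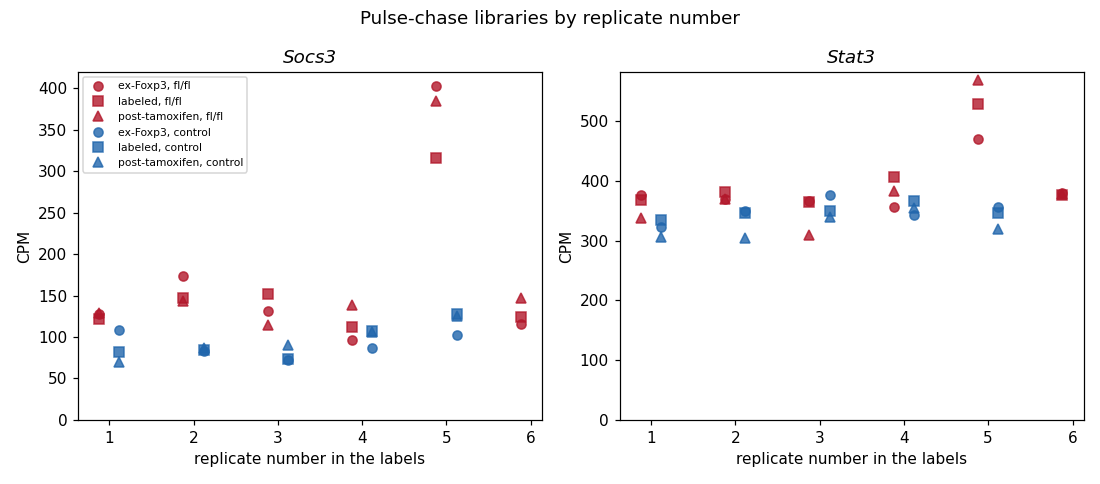
Socs3 (left) and Stat3 (right) in CPM (vertical axes from 0) by the replicate number in the labels (horizontal axis), with red symbols for fl/fl and blue for control libraries and a shape for each population. The 3 fl/fl libraries with number 5 stand at 316 to 403 CPM of Socs3 and 469.8 to 569.5 CPM of Stat3, above all others.

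Beyond the 9 members, 74 genes of the wider pathway were listed, of which 70 were tested in the pulse-chase and 65 in the chimera experiment. The lists were chosen with earlier results of these data known, so counts within them are a description. None of the 6 ligand genes was tested in the chimera, and Il2 itself held at most 5 counts in any library. Of the 24 IL-2 and STAT5 target genes, 11 were lower and 0 higher in ex-Foxp3 than in labeled fl/fl cells, where 2.04% of all genes were called lower (median -0.82, against 0.01 over all genes). They include Foxp3, which the gate reads, Pim1, a survival kinase (-0.80 ± 0.14, adjusted p = 0.000216), and Tnfrsf18, the costimulatory receptor GITR (-0.84 ± 0.14, adjusted p = 0.000218). Foxp3 and Tnfrsf18 are also Treg cell markers, and the part of STAT5 in these differences was not tested. Of 6 genes that STAT5 is known to lower, 3 were higher and 0 lower, where 2.06% of all genes were called higher. These were Tcf7, a factor of naive and memory T cells (1.06 ± 0.16, adjusted p = 0.00011), Il6ra, the IL-6 receptor (0.72 ± 0.15, adjusted p = 0.00405), and Klf2, which keeps T cells circulating (0.57 ± 0.16, adjusted p = 0.0307). In controls, where 0.353% of all genes were called, 2 of the 24 targets were lower (Foxp3 and Tnfrsf18, -0.78 ± 0.16, adjusted p = 0.0141) and Tcf7 was higher (0.90 ± 0.18, adjusted p = 0.0141). Among receptor and signalling genes, Il4ra, the IL-4 receptor chain, was lower in ex-Foxp3 than labeled fl/fl cells (-0.47 ± 0.14, adjusted p = 0.0498), and Jak2, Ptpn11 and Sos1 were higher (0.31 to 0.47). All 24 targets were tested, and the whole wider list had 6 higher and 12 lower of 70 in fl/fl mice and 1 higher and 2 lower in controls.

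Against post-tamoxifen cells, 9 of the 24 targets were lower and 0 higher in ex-Foxp3 fl/fl cells, where 9.39% of all genes were called lower and 5.8% higher. They were led by Myc, the growth factor-driven regulator (-1.63 ± 0.24, adjusted p = 3.99e-05), Foxp3 and Ctla4, an inhibitory receptor (-0.98 ± 0.17, adjusted p = 0.000267). In controls 4 were lower and 2 higher (2.76% and 2.57% of all genes), led by Foxp3, Myc (-1.11 ± 0.25, adjusted p = 0.0074) and Nfil3, which was higher (1.12 ± 0.28, adjusted p = 0.012). Among the 6 genes that STAT5 is known to lower, 1 was higher in fl/fl mice (Tcf7, 0.75 ± 0.16, adjusted p = 0.00173) and 0 in controls. Their median log2 fold change was 0.27 in fl/fl mice and -0.08 in controls. Stat4, which carries IL-12 signals, was higher in both genotypes (0.57 ± 0.10, adjusted p = 8.63e-05 in fl/fl mice and 0.62 ± 0.11, adjusted p = 0.00058 in controls), as was Ptpn11, a phosphatase gene (0.59 ± 0.12, adjusted p = 0.000466 in fl/fl mice and 0.49 ± 0.13, adjusted p = 0.0148 in controls). Syk, a kinase abundant in B and myeloid cells, had log2 fold changes of -3.95 in fl/fl mice and -3.85 in controls, beside the B, plasma and myeloid marker sums of post-tamoxifen cells. In labeled against post-tamoxifen cells 2 of 24 targets were higher in fl/fl mice (1.79% of all genes), Tnfrsf18 (0.53 ± 0.14, adjusted p = 0.0222) and Nfil3 (0.78 ± 0.23, adjusted p = 0.0381), and 5 in controls (3.98% of all genes), led by Il1rl1, the IL-33 receptor (2.99 ± 0.50, adjusted p = 0.000537), Nfil3 (1.40 ± 0.28, adjusted p = 0.00136) and Icos (1.19 ± 0.24, adjusted p = 0.00254). There 1 of the 6 genes that STAT5 is known to lower was lower in fl/fl mice (2.78% of all genes) and 2 were lower in controls (3.95%), with 0 higher.

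Between genotypes, 8 of the 24 targets were higher and 0 lower in post-tamoxifen fl/fl cells, which lack the tdTomato mark of Cre. In that comparison 3.9% of all genes were called higher, and the median of the targets was 0.20, against 0.01 over all genes. The 8 were led by Nfil3 (1.49 ± 0.27, adjusted p = 0.00101), Icos, a costimulatory receptor (1.37 ± 0.24, adjusted p = 0.00105), and Il10, an anti-inflammatory cytokine (3.43 ± 0.72, adjusted p = 0.00337). In the same libraries B and plasma cell markers reached 547 CPM in fl/fl against 61.4 CPM in control cells and division markers 3696 CPM against 1088 CPM, and their part in these calls was not tested. In labeled and in ex-Foxp3 cells 0 of 70 listed genes were called between genotypes, where 0.0101% and 0.181% of all genes were called. In the chimera 2 of 65 were higher in knockouts (0.857% of all genes). One was Bcl2, a listed target that protects from cell death (0.28 ± 0.07, adjusted p = 0.0274). The other was Klf2, listed as lowered by STAT5 (0.40 ± 0.10, adjusted p = 0.0498). Ptpn11 was lower (-0.42 ± 0.09, adjusted p = 0.00483), where 1.56% of all genes were called lower.

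Likeness of pattern was measured over the 6 pulse-chase group means as the root mean square difference of centred log2 CPM, among 7226 genes of mean log2 CPM 4 or more, for the members whose group means spanned more than 1 log2 unit. Il2ra was most like Lrrc32, which encodes the TGF-beta docking protein GARP on Treg cells (0.149), Foxp3 (0.289) and Dusp4 (0.297); the median over all candidates was 0.933. Cish was most like Tnfrsf18 (0.112), Ptprj (0.118) and Pim1 (0.132), with a median of 0.419. Socs2 was most like Fabp5 (0.162) and the division genes Aspm (0.187) and Mki67 (0.199), with a median of 0.606. These values rest on 6 means that share their libraries and are a description.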

How the data were processed

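RNA from sorted cells was isolated with the AllPrep DNA/RNA Micro Kit and SMARTer Stranded Total RNA-Seq v2 libraries were made, per the labels' protocols. The submitters' processing notes name bcl2fastq 2.17.1.14, TopHat2 2.1.0 and the build mm10. Values are raw, unnormalized counts in whole numbers, 1 row per gene and 1 column for each of 41 libraries, as the authors deposited them. Of the annotation, counter and strand setting, none was given in the sources used here.

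Counts were analysed with edgeR 4.0.16 in R 4.3.3 (TMM factors, expression filter by group, robust quasi-likelihood fit, 2-sided F-test). Separate fits covered the 8 chimera libraries (9569 genes) and the 33 pulse-chase libraries of 6 groups (9921 genes). An adjusted p under 0.05 by Benjamini-Hochberg over all genes tested was a call, and the SE is the log2 fold change over the root of F. Total counts (781437 to 5709702) limit the precision of low genes such as Socs2, and intervals over libraries cover sampling among these libraries. Libraries of 1 group differed by more than sampling noise in every pair (chi-square per degree of freedom 2.60 or more).

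The members and the lists of pathway and marker genes were chosen with earlier results of these data known. All 9 members are named in every comparison; in a pathway list at most the 3 called genes with the smallest p are named, apart from the targeted gene, Foxp3, Stat3, Insl3, Il2, and, as examples repeated from a list, Syk and Nfil3. Exon lengths came from GENCODE M21 and promoter windows from RefSeq. The pipeline was tested on simulated data in which 2 sets of 100 genes were altered. Of those altered 2-fold and 4-fold it recovered 79 and 97 for the chimera (9472 genes), and 90 and 99 for ex-Foxp3 against labeled fl/fl cells (9807 genes).

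Replicate numbers recur across groups. Deviations of same-numbered libraries from their group means correlated above 0.1 in every pair for ex-Foxp3 against labeled cells of fl/fl mice (0.144 to 0.360) and controls (0.138 to 0.303), and in fl/fl mice for labeled (0.244 to 0.438) and ex-Foxp3 (0.127 to 0.393) against post-tamoxifen cells. There the fit blocked by number, from the numbers in the labels, stands beside results it changes.

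Alternatives were other scaling factors (RLE, upper quartile), no filter and a stricter filter on low counts, DESeq2 1.42.0, fits of the compared groups alone, the block and 1 library left out at a time. Further settings, chosen after seeing the data, split numbers 1 to 3 from 4 and above or removed chimera controls 3 and 4 (high in B cell and division transcripts), mice with Y-linked reads, post-tamoxifen libraries low in Foxp3, ex-Foxp3 libraries high in NK markers and fl/fl number 5. Plots used Python 3.11.15 with pandas 2.3.3 and matplotlib 3.10.9.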

Additional observations from a re-analysis of the deposited data

Results flagged for a closer look

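The highest and lowest library of each group was compared with the spread of the rest for each member (Dixon's criterion at 95%), and 3 of 72 sets of a member and a group stood out, where chance alone flags about 1 set in 20. All were Socs3 in libraries of fl/fl number 5. In ex-Foxp3 cells that library held 403 CPM, against 96.4 to 174 CPM in the other 5. In labeled cells it held 316 CPM, against 112 to 153 CPM. In post-tamoxifen cells it held 385 CPM, against 114 to 147 CPM. Stat3 was highest in the same libraries, and the part of either gene in the level of the other was not tested.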

How the results depend on the processing

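The members called kept their direction in every alternative run, and no log2 fold change of a called member reversed. Counts of members called as reported were 0 in the chimera, 0, 0 and 1 between genotypes in labeled, ex-Foxp3 and post-tamoxifen cells, 2 in fl/fl mice and 2 in controls for ex-Foxp3 against labeled cells, 0 and 0 for labeled against post-tamoxifen cells, and 3 and 3 for ex-Foxp3 against post-tamoxifen cells. RLE and upper quartile factors and the stricter filter left each of these counts as it was. DESeq2 gave 1 in the chimera, 1 between genotypes in ex-Foxp3 and 3 in post-tamoxifen cells, 4 for ex-Foxp3 against labeled fl/fl and 5 against post-tamoxifen fl/fl cells. No filter gave 1 in the chimera. The compared groups alone gave 2 and 0 between genotypes in ex-Foxp3 and post-tamoxifen cells. For ex-Foxp3 against labeled cells they gave 4 in fl/fl mice and 4 in controls. They lost Socs2 for ex-Foxp3 control against post-tamoxifen control cells (adjusted p = 0.186). Numbers 1 to 3 alone gave 1, 1 and 3 between genotypes in labeled, ex-Foxp3 and post-tamoxifen cells, 0 in controls against labeled cells, and 1 in fl/fl mice and 0 in controls for ex-Foxp3 against post-tamoxifen cells. Numbers 4 and above alone gave 1 and 0 between genotypes in ex-Foxp3 and post-tamoxifen cells and 1 and 1 for labeled against post-tamoxifen cells. Without mice with Y-linked reads, 1 was left for ex-Foxp3 control against labeled and 1 against post-tamoxifen cells. Without post-tamoxifen libraries low in Foxp3 there were 1 and 1 for labeled and 5 and 5 for ex-Foxp3 against post-tamoxifen cells. Without fl/fl number 5 there were 2 between genotypes in post-tamoxifen cells, and Il2rb was lost for ex-Foxp3 against post-tamoxifen fl/fl cells (adjusted p = 0.104). Leaving out 1 library at a time gave 0 to 1 in the chimera, 0 in labeled and ex-Foxp3 genotype, 1 to 2 in post-tamoxifen genotype, 2 to 3 and 1 to 2 against labeled cells (fl/fl, control), 2 to 5 and 1 to 5 for ex-Foxp3 against post-tamoxifen cells, and 0 for labeled against post-tamoxifen cells and for both interactions. The causes of these moves were not tested, and fewer libraries in a fit lower what it can call.

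The replicate block raised the counts of members to 4 (ex-Foxp3 against labeled fl/fl), 1 (labeled against post-tamoxifen fl/fl) and 5 (ex-Foxp3 against post-tamoxifen fl/fl), and in controls it gave 3 against labeled and 3 against post-tamoxifen cells. In the comparisons where numbers did not pair the libraries, the block gave 1 in the chimera (Socs3, 0.0101), 3 in labeled genotype, 4 in ex-Foxp3 genotype (Il2ra 1.63e-05, Il2rb, Cish and Socs2) and 2 in post-tamoxifen genotype. Same-numbered correlations there ran from -0.09 to 0.02 (chimera), 0.08 to 0.29 (labeled genotype), 0.03 to 0.16 (ex-Foxp3 genotype) and -0.08 to 0.24 (post-tamoxifen genotype), and in controls -0.02 to 0.25 (labeled) and 0.05 to 0.17 (ex-Foxp3, both against post-tamoxifen). In none of these did every library correlate best with its own number (0 of 8, 2, 3, 3, 4 and 6 of 10 in that order). Where the block stands beside results, most but not all did. There it was 10 of 12 in fl/fl mice and 9 of 10 in controls for ex-Foxp3 against labeled cells. Against post-tamoxifen fl/fl cells it was 10 of 12 for labeled and 9 of 12 for ex-Foxp3 cells. The block changed no other call of a member.

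Counts over all genes that moved by over 1.5 times are set against those reported (231 in the chimera; 1, 18 and 717 in labeled, ex-Foxp3 and post-tamoxifen genotype; 406 and 35 for ex-Foxp3 against labeled fl/fl and control; 454 and 787 for labeled, and 529 for ex-Foxp3 control, against post-tamoxifen cells; 2 for the tamoxifen label interaction). The block gave 180 and 383 in labeled and ex-Foxp3 genotype, 893 and 211, 805 and 1280, 878, and 6 in the order above. DESeq2 gave 51 and 84 in labeled and ex-Foxp3 genotype and 79 for ex-Foxp3 against labeled control. The compared groups alone gave 41, 137 and 147 between genotypes, 137 for ex-Foxp3 against labeled control, 202 and 493 for labeled and 297 for ex-Foxp3 control against post-tamoxifen cells, and 1 for the interaction. Numbers 1 to 3 gave 71, 143 and 1325 between genotypes, 78 and 125 for labeled and 0 for ex-Foxp3 control against post-tamoxifen cells, and 0 for the interaction. Numbers 4 and above gave 7, 5 and 209 between genotypes, 179 for ex-Foxp3 against labeled and 774 for labeled against post-tamoxifen fl/fl, and 4 for the interaction. No filter gave 396 in the chimera and 23 for ex-Foxp3 against labeled control. Without chimera controls 3 and 4 there were 95. Without mice with Y-linked reads there were 0, 5 and 451 between genotypes, 4 and 506 in controls (ex-Foxp3 against labeled, labeled against post-tamoxifen) and 1 for the interaction. Without libraries high in NK markers there were 2 in ex-Foxp3 genotype and 163 against labeled fl/fl; without fl/fl number 5, 248 for labeled against post-tamoxifen fl/fl and 0 for the interaction; without libraries low in Foxp3, 928 for ex-Foxp3 against post-tamoxifen control and 14 for the interaction. Leaving out 1 library gave 100 to 352 in the chimera, 1 to 9, 5 to 56 and 390 to 1147 between genotypes, 242 to 433 and 4 to 29 against labeled cells, 491 to 1114 for labeled and 259 to 917 for ex-Foxp3 against post-tamoxifen controls, and 0 to 16 for the interaction. Depth limits Socs2 most, with as few as 17 counts in a library.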
